A study of Mus musculus with 2 samples.

Results

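Steroid hormones of the ovary are made and disposed of by a short chain of enzymes, and 10 genes of that chain were followed here in mouse ovaries with and without the progesterone receptor (PR, gene Pgr), a transcription factor that progesterone switches on. The genes were Star, Cyp11a1, Fdx1, Cyp17a1, Cyp19a1, Hsd17b1, Hsd17b7, Srd5a1, Akr1c18 and Sult1e1, taken by name from the platform annotation of an Affymetrix mouse array. Of the 10 genes, 8 were matched to at least 1 probe set that carried a single gene symbol, 15 probe sets in all. Cyp19a1 (aromatase) and Srd5a1 (steroid reductase) were not analysed here. The 8 genes stand among 18193 genes with such a probe set.

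The 2 groups were wild type and PR knockout, both on the C57BL/6 background and 24 to 28 days old. All mice had received 5 IU of PMSG, a gonadotropin that makes follicles grow, and then, 48 h later, 5 IU of hCG, which stands in for the ovulatory luteinizing hormone surge. Ovaries were collected 11 h after hCG, and each group was read on 1 array from whole-ovary RNA. The number of animals behind each RNA sample and the way the receptor gene was disrupted are not given in the sources used here. With 1 array per group every difference below is a single value without a replicate check, and no test was possible.

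The pathway starts when STAR moves cholesterol into the mitochondrion, where CYP11A1, with electrons handed over by FDX1, cuts it to pregnenolone. Pregnenolone becomes progesterone, and in theca cells CYP17A1 turns such precursors into androgens, which granulosa cells convert to estrogens with aromatase and HSD17B1. After the ovulatory surge granulosa cells turn from estrogen towards progesterone. AKR1C18 reduces progesterone to a form that binds the receptor poorly, SULT1E1 attaches sulfate to estrogens and so inactivates them, and steroid reductases such as SRD5A1 convert progesterone and testosterone further.

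Among the 8 genes, the lowest knockout signals relative to wild type were those of the inactivating enzymes Akr1c18 and Sult1e1. Inactivating enzymes outside the 8 genes differed in both directions and are described below. Akr1c18 was 7.01-fold lower in the knockout ovary and Sult1e1 at least 3.04-fold lower. The genes of cholesterol entry, androgen synthesis and estrogen synthesis lay within 2-fold, from Star, 1.47-fold lower, to Hsd17b1, 1.54-fold higher. Differences are given as log2 of knockout over wild type. A floor was set at each array's median signal (wild type 36.2, knockout 38.0), and lower signals were raised to it, so that a fold against a floored signal is a lower bound. All 8 genes were measured, as were 11316 genes on the whole array, meaning that the brightest probe set was not under the floor on both arrays.

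Of the 8 genes, 2 were at least 2-fold lower in the knockout, against 1.72% of all measured genes, and 0 were at least 2-fold higher, against 1.15%. The genes were chosen with earlier results of these data known, so this comparison with the whole array is only descriptive. By sign alone 7 of the 8 were lower, where 42.2% of all measured genes were. That count went down to 5 after removal of the trend with signal, where 49.0% of all genes were lower, and to 4 after quantile normalization, where 45.3% were. Shares of this size are near the background. The count changed because Cyp11a1, Hsd17b7 and, in the second case, Fdx1 lay near 0. The median log2 difference of the 8 genes was -0.35, and that of all measured genes was 0.06. A yardstick for single values is the spread between probe sets of the same gene, an SD of 0.25 on the log2 scale over 4771 genes, which leaves out the spread between animals.

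**Figure D1:**
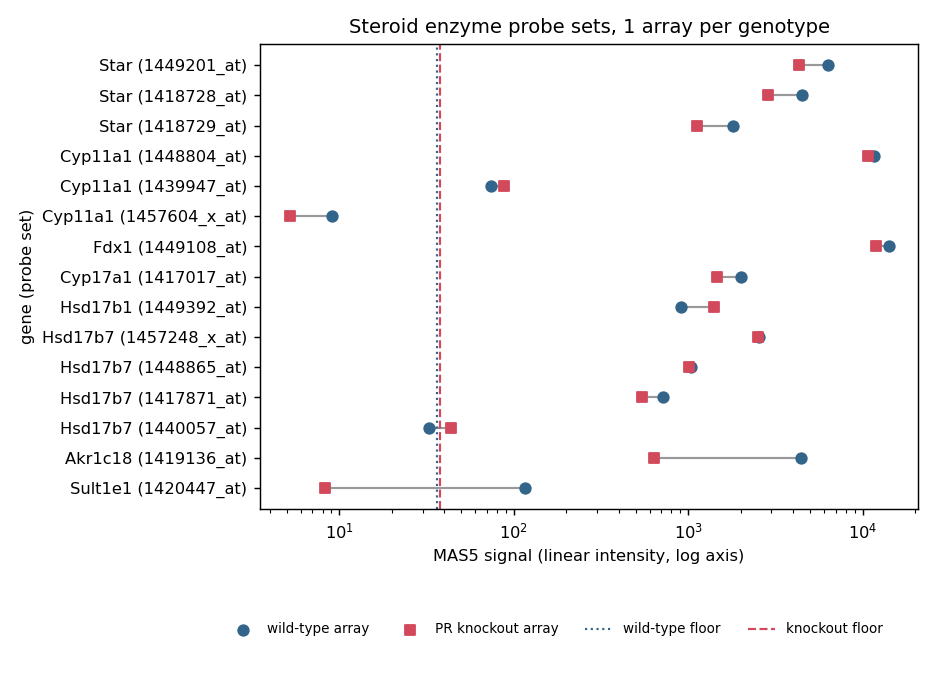
MAS5 signals (linear intensity on a log axis) of the 15 probe sets of the 8 steroid enzyme genes on the wild-type array (circles) and the PR knockout array (squares), with the floors of both arrays as vertical lines. The widest gaps are those of Akr1c18 (4447 and 634.4) and Sult1e1 (115.5 and 8.24), and the 3 Star probe sets all lie to the left on the knockout array.

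Star, the gene of the cholesterol carrier at the rate-limiting step, was read by 3 probe sets that agreed in direction and size. Probe set 1449201_at gave 6317 in wild-type and 4307 in knockout ovary. Probe set 1418728_at gave 4462 and 2856, and probe set 1418729_at gave 1807 and 1129, in the same order. The log2 differences were thus -0.55, -0.64 and -0.68, and the spread among them was smaller than their distance from 0. Among the 1132 brightest genes, the top bin when measured genes were ranked by mean signal and cut into 10 bins, whose median difference was -0.05, 5.57% lay lower than Star. The direction held in each of the 8 other processing choices tried, with values from -0.62 to -0.43. In whole-ovary RNA, fewer cells of a type and less transcript per cell cannot be told apart, here and below.

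The cleavage step differed less. Cyp11a1, the side-chain cleavage enzyme gene, gave 11658 in wild-type and 10744 in knockout ovary on probe set 1448804_at, a log2 difference of -0.12. Its dim probe set 1439947_at pointed the other way, at 73.6 and 88.2 (log2 difference 0.26), and 1457604_x_at was under the floor on both arrays at 9.01 and 5.18. The sign of Cyp11a1 turned under quantile normalization (0.05), after removal of the trend with signal (0.03) and with the mean over probe sets (0.07). Fdx1, which encodes the electron carrier ferredoxin, had 1 probe set, 1449108_at, with signals of 14074 and 11923 and a log2 difference of -0.24. Its wild-type signal was close to the highest on that array, 14270, and quantile normalization took the difference to 0.02. On its brightest probe set, neither gene was separated from equality by more than the probe-set spread of 0.25, which Fdx1 passed after median centring (-0.29).

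Cyp17a1, the androgen-forming enzyme gene of theca cells, was lower in the knockout. Its 1 probe set, 1417017_at, gave 2010.3 in wild-type and 1456 in knockout ovary, 1.38-fold lower, or -0.47 on the log2 scale. The value ran from -0.52 to -0.40 over the processing choices. Most other theca and interstitial markers did not share this direction. Without the steroid enzymes, 4 of 5 measured markers were higher in the knockout and 1 was lower, where 42.2% of all measured genes were lower. Of the higher ones, Enpep was near equality at 0.03 and Gli1 was under the wild-type floor. The summed signal of the 5 markers was 5607 in wild-type and 6691 in knockout ovary. Ptch1, the hedgehog receptor gene on that list, gave 615.4 and 1209. The part of cell composition in the Cyp17a1 and Star differences was not tested.

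Among the estrogen-forming genes Hsd17b1 stood on the other side. It encodes the granulosa cell enzyme that reduces estrone to estradiol, and probe set 1449392_at gave 905.6 in wild-type and 1396 in knockout ovary, 1.54-fold higher, or 0.62 on the log2 scale. In its bin of mean signal 98.6% of genes had a lower difference. It was the 1 gene of the 8 above 0 as reported, and it stayed between 0.57 and 0.67 over the processing choices. Cyp11a1 joined it above 0 when probe sets were averaged. Cyp11a1 and Hsd17b7 did so after removal of the trend with signal, and Cyp11a1, Hsd17b7 and Fdx1 under quantile normalization. The granulosa marker list leaned in the direction of Hsd17b1. Without Hsd17b1, 7 of 8 measured markers were higher in the knockout and 1 was lower, where 42.2% of all measured genes were lower. Of the higher ones, Gja1 was near equality at 0.02. Nr5a2 was at 0.09, with its other measured probe sets at -0.38 and -0.47. The summed signal of these markers was 20809 in wild-type and 22339.7 in knockout ovary. Most of it came from Inha, at 8399 and 8073, and Gja1, at 6914 and 7000. Their median log2 difference was 0.27, against 0.06 for all measured genes. The part of granulosa cell content in the Hsd17b1 difference was not tested.

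Hsd17b7, whose product reduces estrone and also serves cholesterol synthesis, differed little on its brightest probe sets. Probe set 1457248_x_at, which can match several transcripts, gave 2560 in wild-type and 2523 in knockout ovary, and 1448865_at gave 1038 and 1010.1. Probe set 1417871_at was lower in the knockout, at 715.4 and 546.6, a log2 difference of -0.39. The remaining probe set, 1440057_at, was near the floor at 32.7 and 43.4. The 4 probe sets thus ran from -0.39 to at least 0.26, the latter bounded by the wild-type floor, and the sign of the brightest, at -0.02, turned under quantile normalization (0.08) and after removal of the trend with signal (0.04).

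**Figure D2:**
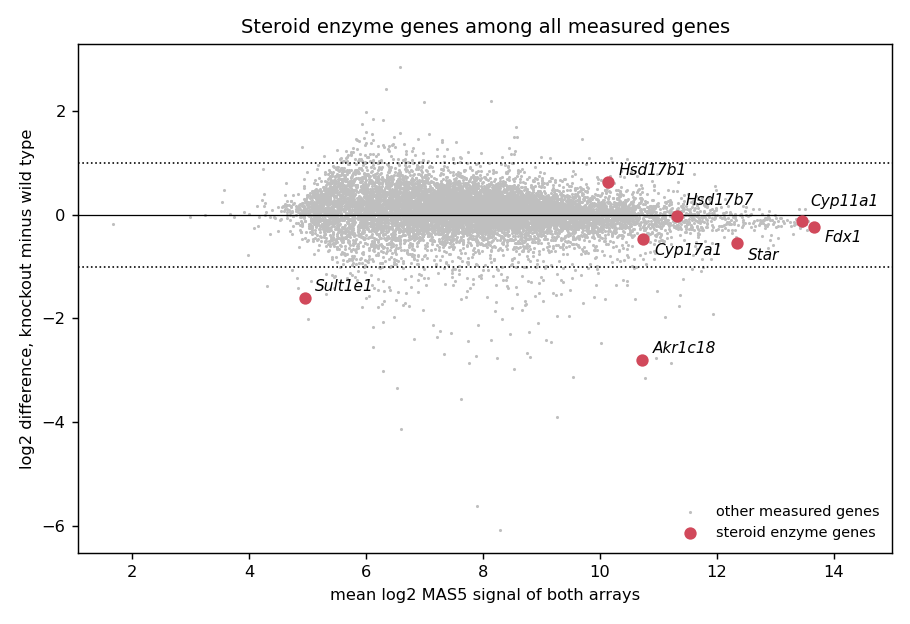
Log2 difference (knockout minus wild type, vertical axis) against mean log2 signal of both arrays (horizontal axis, signals before flooring) for the 11316 measured genes in grey and the 8 steroid enzyme genes in red, with dotted lines at 2-fold. Akr1c18 at -2.81 and Sult1e1 at -1.61 lie below the lower line, and the other 6 genes lie between -0.55 and 0.62.

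Akr1c18, the progesterone-inactivating enzyme gene, had the largest difference among the steroid enzyme genes above the floor on both arrays. That of Sult1e1 is known only as a bound. The 1 probe set of Akr1c18, 1419136_at, gave 4447 in wild-type and 634.4 in knockout ovary, both far above the floors. The log2 difference was -2.81, and 12 of the 11316 measured genes had a lower one. It ranged from -2.86 to -2.74 over the processing choices. AKR1C18 is best known from regressing corpora lutea, so the luteal marker list was set beside it. Without Akr1c18, 2 of 5 measured luteal markers were lower in the knockout, near the 42.2% of all measured genes. The summed signal of the 5 markers was 27991 in wild-type and 28408 in knockout ovary, and their median log2 difference was 0.11. The luteal marker farthest below its wild-type signal was Parm1, at 782.0 and 313.0, whereas Hsd3b1 gave 11244 and 12099.5. Hsd3b1 and Sfrp4, the latter at 8731 and 8065, made up most of the summed signal. The part of luteal cell content in the Akr1c18 difference was not tested.

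The family of Akr1c18 lies side by side on chromosome 13, and its direct neighbour there differed the other way. Akr1c14 encodes a hydroxysteroid dehydrogenase that reduces dihydrogenated progesterone and testosterone. It was 2.03-fold higher in the knockout, with signals of 829.8 and 1683 on its 1 probe set. It was just under 2-fold after median centring (1.95-fold) and with an offset in place of the floor (1.99-fold). On the other side of Akr1c18, Akr1c13, a dim gene at 51.9 and 76.0, was 1.47-fold higher. A probe set shared by Akr1c12 and Akr1c13 gave 66.4 and 92.2. Beyond them Akr1c19, Akr1c12, Akr1c6 and Akr1c20 were under the floor on both arrays, as was Ucn3 beyond Akr1c14, and Net1 gave 164.4 and 136.4. The 10 nearest protein-coding genes, 5 on each side in the RefSeq gene table, were looked at after the Akr1c18 value was known, and 8 of them had a single-symbol probe set.

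The promoters of both neighbours are shown because the genes lie side by side and differ in opposite directions, and that of Sult1e1 because it is the other gene past 2-fold. They run 5′ to 3′ from 250 bases before to 50 bases after the RefSeq start on GRCm38.p6, at chr13:4150597-4150896 (minus strand), chr13:4059341-4059640 (plus strand) and chr5:87591562-87591861 (minus strand). Capitals mark any match to the 5 motifs described next.
Akr1c18: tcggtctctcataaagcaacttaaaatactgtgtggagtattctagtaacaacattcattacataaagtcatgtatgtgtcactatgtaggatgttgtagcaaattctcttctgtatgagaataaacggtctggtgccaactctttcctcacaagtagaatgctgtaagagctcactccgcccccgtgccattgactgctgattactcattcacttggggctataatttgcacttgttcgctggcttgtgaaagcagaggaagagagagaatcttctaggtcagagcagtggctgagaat
Akr1c14: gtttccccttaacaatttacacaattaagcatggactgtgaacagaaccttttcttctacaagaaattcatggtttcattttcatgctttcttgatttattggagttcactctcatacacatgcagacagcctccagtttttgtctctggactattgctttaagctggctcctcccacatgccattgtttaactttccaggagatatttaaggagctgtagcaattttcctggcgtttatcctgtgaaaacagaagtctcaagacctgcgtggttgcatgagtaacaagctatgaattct
Sult1e1: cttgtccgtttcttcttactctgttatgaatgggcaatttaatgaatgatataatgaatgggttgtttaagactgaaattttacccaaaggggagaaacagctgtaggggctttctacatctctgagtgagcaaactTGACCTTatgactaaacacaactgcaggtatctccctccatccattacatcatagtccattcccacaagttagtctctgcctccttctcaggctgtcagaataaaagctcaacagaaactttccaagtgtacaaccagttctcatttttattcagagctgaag

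The motifs were searched on both strands. They were AAGGTCA, bound by the steroidogenic NR5A receptors, AGAACA, a half-site of the progesterone and glucocorticoid receptors, TGACG, a half-site of cyclic AMP response elements, AGATAA for GATA factors, and TATAAA, the TATA box. No overlapping matches of different motifs were found in these promoters. The Akr1c18 and Akr1c14 windows held none of these letters. The Sult1e1 window held AAGGTCA once, on the opposite strand and starting at position -113 from the start site, a motif found in 4.72% of the 32851 promoters in the table. Entries were found for 7 of the 10 genes, 10 promoters in all: AGAACA was present in 1 of them (Hsd17b7, against 19.0% of all promoters), TGACG in 2 (Hsd17b7 and one of Cyp11a1, against 20.8%), TATAAA in 2 (both from Cyp19a1, which has 3 entries, against 13.6%) and AGATAA in 0 (against 11.2%). A match is a run of letters in this window and not evidence of binding.

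Sult1e1, the estrogen sulfotransferase gene, was dim. Its 1 probe set, 1420447_at, gave 115.5 in wild-type and 8.24 in knockout ovary, under the floor of 38.0. The bound of at least 3.04-fold corresponds to -1.61 on the log2 scale. With the floor applied to all genes, 66 measured genes had a lower value, and values of other genes at the floor are bounds too. Without a floor the signals differ 14.0-fold, a ratio that rests on a value under background. With the floor at the 70th percentile of each array Sult1e1 was not measured on either array, so that 1 and not 2 of the steroid enzyme genes was then at least 2-fold lower. SULT1E1 is also made outside the follicle, in fat among other tissues, and the fat markers were therefore read. Adipoq and Lep were under the floor on both arrays, while Fabp4, which macrophages and endothelium express too, gave 335.1 in wild-type and 70.9 in knockout ovary. Surface epithelium markers were lower in the knockout in 6 of 6 genes, against 42.2% of all measured genes, with summed signals of 1256 and 709.8. Whether either had a part in the Sult1e1 difference was not tested. Around Sult1e1 on chromosome 5, 8 of the 10 nearest protein-coding genes could be read through a single-symbol probe set; 0 reached the floor, among them its relatives Sult1d1 and Sult1b1.

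**Figure D3:**
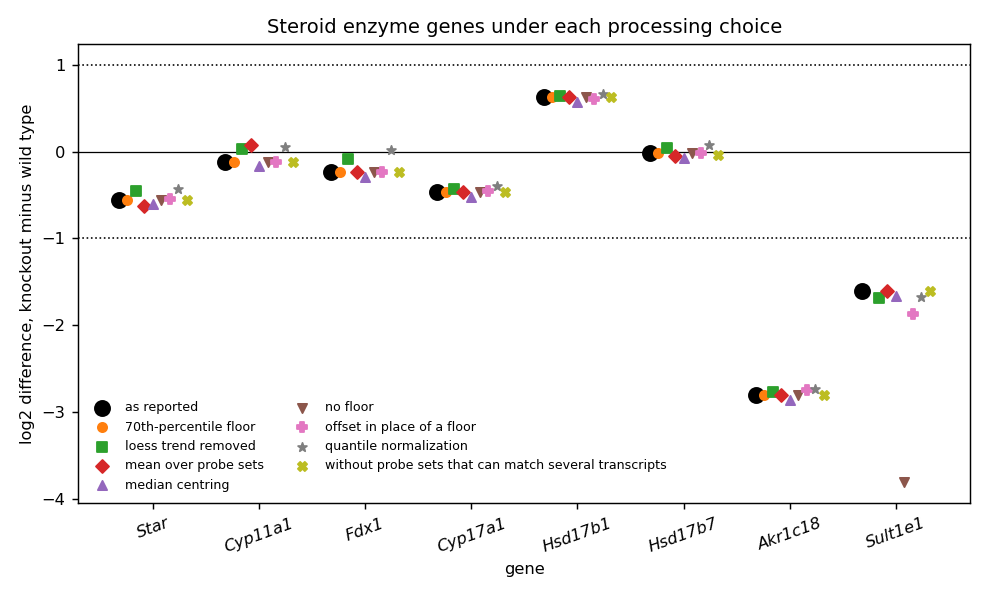
Log2 difference (knockout minus wild type) of the 8 steroid enzyme genes as reported (large circles) and under each of 8 other processing choices (small symbols), with dotted lines at 2-fold. Akr1c18, Sult1e1, Star, Cyp17a1 and Hsd17b1 keep their side of 0 wherever they were measured, and Cyp11a1, Fdx1 and Hsd17b7 cross it under at least 1 rescaling or summary.

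Other genes of the pathway were described from 7 lists, which hold 74 genes, 47 of them measured. Of these 47, 2 lay at least 2-fold below wild type, against 1.72% of all measured genes, and 1 at least 2-fold above, against 1.15%. Counts this small cannot be set apart from those shares. The median log2 difference of the 47 was 0.15, and that of all measured genes was 0.06. The lists are described gene by gene below.

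Upstream, 4 of 9 measured cholesterol delivery genes were lower, near the 42.2% of all measured genes, and their median of 0.09 was near that of all genes, 0.06. Stard5, which encodes a lipid-binding relative of STAR, was 2.57-fold lower, at 287.4 in wild-type and 112.0 in knockout ovary, and its 3 measured probe sets ran from -1.43 to -1.17. Npc1 and Lipe, whose products free cholesterol from lysosomes and from stored esters, had log2 differences of 0.46 and 0.43, and Tspo, a mitochondrial membrane protein gene, 0.35. At the next step Hsd3b1, which converts pregnenolone to progesterone, was close to equality at 0.11, as was the electron donor gene Cyb5a at 0.02. The knockout signal of Hsd3b1, 12099.5, was the highest on that array. Hsd3b2 and Hsd3b3 were under the floor on both arrays.

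Among genes of androgen, estrogen and corticoid synthesis, 3 of 6 with a probe set were measured and 0 were 2-fold apart. Hsd17b12, a further reducing enzyme, was at -0.02. The corticoid enzyme gene Cyp11b1 gave 258.2 and 339.4, and Cyp11b2 51.7 and 64.9. Both are defining genes of the adrenal cortex. Of the other markers on that list with a probe set, Cyp21a1 and the corticotropin receptor gene Mc2r were under the floor on both arrays. Mrap, which encodes a partner protein of that receptor, was bright, at 4925 in wild-type and 2317 in knockout ovary, a log2 difference of -1.09. Its relation to the steroid enzyme differences was not tested.

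Inactivating and interconverting enzymes gave the widest range, from -1.96 to 1.02 over 11 measured genes with a median of 0.16. Hsd17b11, a dehydrogenase of lipid droplets that can oxidize androgen metabolites, was lowest: its brightest probe set gave 4343 in wild-type and 1113 in knockout ovary, 3.90-fold lower, and a second one was under the floor in the knockout, which bounds its log2 difference at -2.11 or lower. Akr1c14, described above, was the highest. Hsd11b2, which inactivates glucocorticoids, was 1.99-fold higher at 256.8 and 510.9. Hsd11b1, which regenerates them, was 1.78-fold lower at dim signals of 80.6 and 45.2. In all, 4 of the 11 genes were lower, near the 42.2% of all measured genes, and 1 of them was lower by at least 2-fold, against 1.72%.

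The transcription factors that drive steroid enzyme genes were measured in 14 of 14 cases. Of these, 4 were lower, against 42.2% of all measured genes, and 0 were 2-fold apart, as for most genes on the array. Nr5a1, the master regulator of steroidogenic genes, was at -0.01, and its relative Nr5a2 at 0.09 on its brightest probe set but at -0.38 and -0.47 on its other measured probe sets. Nr4a1, a nuclear receptor that prostaglandin signals induce in luteal cells and that can activate Akr1c18, gave 1841 in wild-type and 1068 in knockout ovary (-0.79). Cebpb, a mediator of luteinizing hormone action, was at -0.74 and Crem, a cyclic AMP response factor gene, at -0.61, with its other measured probe set at -1.23. Foxl2, a granulosa cell identity factor gene, was at 0.61. Stat5a and Stat5b, through which prolactin represses Akr1c18, were at 0.59 and 0.30, with the other Stat5b probe set at 0.06. Whether any of these factors had a part in the Akr1c18 difference was not tested.

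Of the hormone receptors, Ptgfr, the prostaglandin receptor gene of luteal regression, was at 0.21, with 5 measured probe sets from -0.32, a bound set by the knockout floor, to 0.72, and the follicle-stimulating hormone receptor gene Fshr at 0.27. Of the steroid receptors, Esr2, the granulosa estrogen receptor gene, was 1.91-fold higher at 178.9 and 342.5, Esr1 was at 0.40 and Nr3c1, the glucocorticoid receptor gene, at 0.16. The targeted gene itself was no check of the labels: the brightest of its probe sets gave 36.5 in wild-type and 42.8 in knockout ovary, at the floor, and the others lay under it.

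**Figure D4:**
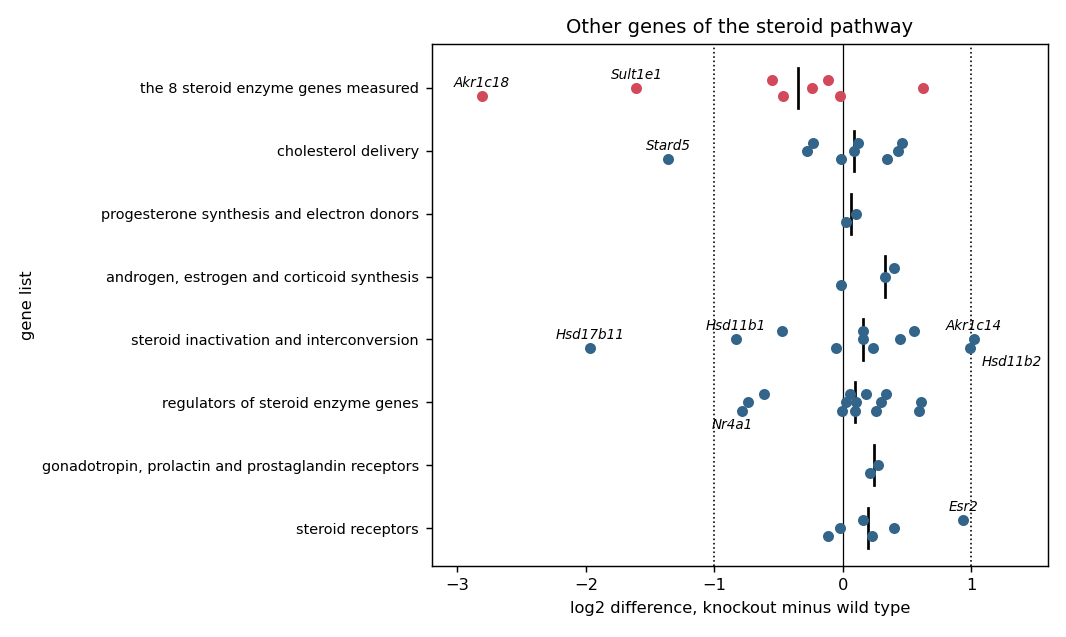
Log2 difference (knockout minus wild type, horizontal axis) of the 8 steroid enzyme genes (red) and of the measured genes of 7 pathway lists (blue), 1 point per gene, with the median of each row as a black bar and dotted lines at 2-fold. Akr1c18, Sult1e1, Hsd17b11 and Stard5 lie left of the lower line and Akr1c14 right of the upper one.

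Markers of ovarian cells were read in both genotypes, which does not show that the cell makeup was alike. All 9 oocyte markers and 9 of 9 granulosa markers with a probe set were measured, and 5 of 5 oviduct markers were under the floor on both arrays. Oocyte marker signals summed to 2573 in wild-type and 2949.8 in knockout ovary, endothelial ones to 1042 and 1263, leukocyte ones to 776.0 and 868.9, and smooth muscle ones to 9813 and 9259. Farther apart, and lower in the knockout, were the surface epithelium markers, at 1256 and 709.8. So were the adrenal cortex markers, at 5234 and 2721 and mostly Mrap, and the fat marker Fabp4, at 335.1 and 70.9.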

How the data were processed

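RNA levels were measured on 2 Affymetrix mouse arrays, 1 per genotype, from 100 ng of total ovary RNA. The deposited values are linear intensity values, 1 per probe set and array, which the authors made with MAS5 and Affymetrix Expression Console 1, per the submitters' processing notes. The mean after trimming 2% at each end was 150.0 on both arrays, so 1 factor scaled each array. MAS5 subtracts mismatch signals, which leaves low values noisy, and removes no trend with intensity.

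Values were taken to log2 with Python 3.11.15. The 64 control probe sets were set aside, leaving 45037, and genes were named from the platform annotation where a probe set had 1 symbol. Each gene was read from its brightest probe set. With 1 array per genotype no test was run, precision is limited by the number of arrays, and genotype cannot be told apart from animal, RNA preparation or array. Alternatives were 3 rescalings, 2 other floors, an offset of 32, 2 other choices of probe sets and a 1.5-fold threshold. The steps were tested on simulated data, with differences planted only in genes well above the floor and the same noise at every signal. Recovery of a difference at the floor, as for Sult1e1, was therefore not checked. Named genes were every probe set of the 10 enzymes, the genes of each pathway list at least 2-fold apart, the 4 farthest from 0 in each list, and Pgr; other names were added after their values were seen. The members and lists were chosen with earlier results of these data known. Promoters are from RefSeq, matched by symbol.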

Additional observations from a re-analysis of the deposited data

Results flagged for a closer look

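A probe set that stands for Hsd3b6, Hsd3b3 and Hsd3b2 together, relatives of the progesterone-forming enzyme gene Hsd3b1, was left out of the comparison because it carries several symbols. Its signal was 41.2 in the knockout, just above that array's floor of 38.0, and 13.7 in the wild type, under the floor of 36.2.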

How the results depend on the processing

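Over the 9 alternatives, 2 steroid enzyme genes lay at least 2-fold below wild type, except with the 70th-percentile floor, where the count was 1 because Sult1e1 lay under that floor on both arrays. The count at least 2-fold above was 0, except at the 1.5-fold threshold, where it was 1 (Hsd17b1). Over all measured genes that threshold gave 538 lower and 740 higher. The median log2 difference of the steroid enzyme genes moved by less than the probe-set SD of 0.25. Of 63 values of single steroid enzyme genes under the alternatives, 60 moved by less than that SD. The others were Fdx1 at 0.02 under quantile normalization and Sult1e1 at -3.81 with no floor and -1.87 with the offset. Across the whole array 195 genes lay at least 2-fold below and 130 above as reported, 219 and 97 after median centring, 214 and 93 after quantile normalization, and 229 and 86 after removal of the trend with signal. With the 70th-percentile floor these counts were 128 and 35, with no floor 261 and 215, and with the offset 150 and 47. No paired analysis was possible because each genotype has 1 array. Sult1e1 is limited by its signal near background, and no value can be set against the spread between animals.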

Other observations

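Akr1cl, a relative of Akr1c18, was on none of the lists and was read after its values had been seen. It gave 10366 in wild-type and 11215 in knockout ovary on its brighter probe set, and 915.1 and 1541 on the other. Scarb1, the lipoprotein receptor gene that supplies cholesterol to steroid-forming cells and a member of the cholesterol delivery and luteal lists, gave 6053 and 6565, and its 3 measured probe sets ran from 0.12 to 0.36 on the log2 scale.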
